A study of Homo sapiens with 5 samples.

Results

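Intronic regions that lie opposite a SINE element were taken from CLIP-Seq region lists of HEK-293 cells, an established human embryonic kidney line. A region was included when its own strand was annotated as an intron of a protein-coding gene and the repeat annotation of the other strand named a SINE. The rule found 475 regions among the 3147 regions of the 5 lists, and 714 of all regions were intronic. CLIP-Seq crosslinks RNA to protein with ultraviolet light, trims the RNA with RNase, pulls the protein down and sequences what remains attached. All lysates here went over beads that bind GFP. The libraries came from experiments with different RNase I amounts. In experiment 1 (0.04 units/ml) there was 1 library of cells transfected with GFP-(GR)50, GFP fused to 50 glycine-arginine repeats (replicate 1), and 1 library of cells transfected with GFP alone. In experiment 2 (0.02 units/ml) there was 1 library each of GFP-(GR)50 (replicate 2), of GFP-(GP)10, GFP fused to 10 glycine-proline repeats, and of untransfected cells. Poly-GR is one of the dipeptide-repeat proteins made from the expanded C9ORF72 repeat in ALS and FTD. Untransfected cells make no GFP, so their regions are RNA recovered on the beads from the same part of the gel without any GFP protein.

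SINEs are short retrotransposons copied through an RNA, and in human the primate-specific Alu family, derived from 7SL RNA, makes up most of them. They are common in introns, where they may lie in either orientation relative to the gene. An intron that holds an inverted Alu carries its complement in the pre-mRNA, with a run of U in place of the A-rich tail. Such U-rich stretches are bound by proteins such as HNRNPC, and pairs of Alus in opposite orientation fold into double-stranded RNA that ADAR edits. A region opposite a SINE therefore lies in pre-mRNA that reads the inverted copy of the element. The lists name the repeat class and not its family, so Alu and other SINEs were not separated. The bases of the regions are not shown, since no genome sequence was used here.

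Each list gives, for each region, the reads that map to 1 place (unique reads) and a listed read count in which the authors added scaled multimapping reads. The lists held 183 regions in GFP-(GR)50 replicate 1, 472 in the GFP library, 805 in GFP-(GR)50 replicate 2, 348 in the GFP-(GP)10 library and 1339 in the untransfected library. Their listed reads ranged between 7468 in the GFP-(GP)10 library and 134222 in GFP-(GR)50 replicate 2, and their unique reads between 1522 in the GFP-(GP)10 library and 9229 in GFP-(GR)50 replicate 2. No list holds a region under 5 listed reads, so an intron without a listed region is not an intron without reads. Each control has 1 library, so every test below compares regions of 2 lists and measures counting error, not the spread between cultures. Intervals in parentheses are 95% intervals, exact Clopper-Pearson for shares and Woolf for odds ratios, and they cover counting error only.

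Nearly all SINEs at intronic regions lay on the other strand. This was counted over 903 regions, the 714 intronic ones together with intronic regions that the annotation puts in its repeat class because a repeat lies on their own strand. A SINE lay opposite 541 of them, or 59.9% (56.6 to 63.1), and on the strand of the region in 20, or 2.21% (1.36 to 3.40). In 2 regions both strands held one. In GFP-(GR)50 replicate 2 the counts were 120 opposite and 7 on the same strand, among 233 regions. In GFP-(GP)10 they were 64 and 2 among 91, and in the untransfected library 350 and 11 among 548. In experiment 1 no such region had a SINE on its own strand, among 7 regions of GFP-(GR)50 replicate 1 and 24 of GFP, for which the exact intervals reach up to 41.0% in GFP-(GR)50 replicate 1 and 14.2% in the GFP library. The opposite strand led in every list. LINEs, the longer autonomous retrotransposons, lay opposite 100 regions and on the same strand in 22, and LTR elements, the remains of retroviruses, opposite 16 and on the same strand in 2. Over all lists together the opposite strand thus led for these classes as well, with smaller ratios than for SINEs. The classes overlap, since 29 of the 475 regions under the rule lay opposite a LINE as well as a SINE. In GFP-(GR)50 replicate 1 a LINE lay opposite 0 regions and on the same strand in 1. Simple repeats went the other way, with 65 regions opposite one and 146 with one on the same strand. How much intron sequence carries each class in each orientation in the genome was not analysed here. Of the 541 regions, 66 fall outside the rule because they also carry a repeat on their own strand, a simple repeat in 57 of them.

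**Figure D1:**
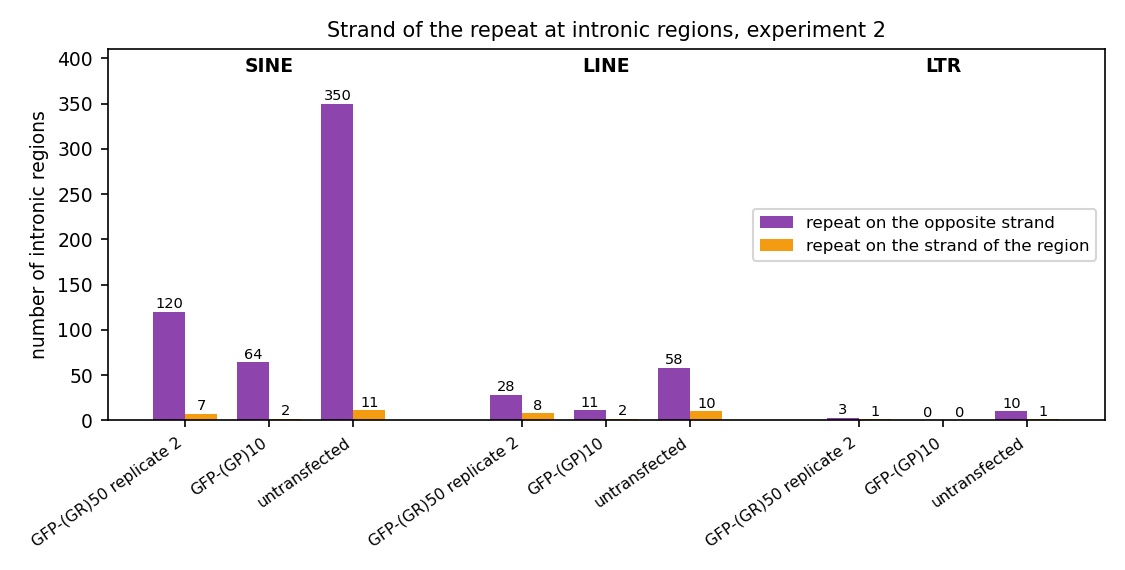
Numbers of intronic regions (vertical axis) with a SINE, LINE or LTR element on the opposite strand (purple) or on the strand of the region (orange), in GFP-(GR)50 replicate 2, GFP-(GP)10 and untransfected cells. Opposite-strand SINEs are the tallest bar of each list, at 120 regions against 7 on the same strand in GFP-(GR)50 replicate 2, 64 against 2 in the GFP-(GP)10 library and 350 against 11 in the untransfected library.

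The other strand held a SINE and no further repeat in 428 of the 475 regions, a SINE and a LINE in 29, a SINE with a simple or low-complexity repeat in 14, and a SINE with a DNA transposon or LTR element in 4. The regions lay on the plus strand in 223 cases and on the minus strand in 252. Only 18 lay opposite an annotated gene, a protein-coding one in 6 cases. Among these, a region in an EIF2S2 intron, a subunit gene of the translation initiation factor eIF2, lay opposite RALY, an hnRNP gene, in GFP-(GR)50 replicate 2. A region in CSNK1D, a casein kinase gene, lay opposite the lactate transporter gene SLC16A3 in the GFP-(GP)10 library. There the host is the gene that the authors assigned by strand.

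The first comparison asks whether intronic regions opposite SINEs took a different share of a GFP-(GR)50 list than of the control lists of its experiment. Shares within a list constrain each other, so higher shares of some classes go with lower shares of others. They do not measure the amount of RNA recovered. In experiment 2 intronic regions opposite SINEs made up a smaller part of the GFP-(GR)50 list than of the untransfected list. The other intronic regions did not differ detectably from untransfected cells. Those opposite a SINE are given first. They were 111 of 805 regions in GFP-(GR)50 replicate 2, or 13.8% (11.5 to 16.4). In the GFP-(GP)10 library they were 55 of 348, or 15.8% (12.1 to 20.1), and in the untransfected library 302 of 1339, or 22.6% (20.3 to 24.9). The difference between GFP-(GR)50 replicate 2 and untransfected cells was -8.77 percentage points, with an odds ratio of 0.549 (0.433 to 0.697) and an adjusted p of 1.7496e-06 (two-sided Fisher's exact test, Benjamini-Hochberg over 39 tests, which are 13 region classes in 3 comparisons). Passing this test was common, since 69.2% of the 13 classes did so in that comparison. Among them were rRNA and protein-coding exons, which were higher in GFP-(GR)50. The repeat class of the annotation and regions without annotation also passed and were lower.

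Against GFP-(GP)10 the share in GFP-(GR)50 replicate 2 differed by -2.02 points, with an odds ratio of 0.852 (0.600 to 1.21), and did not pass (adjusted p = 0.616, same exact test), where 23.1% of the classes did. The interval of that odds ratio spans 1. The result depended on which regions were kept. With at least 10 listed reads the direction turned, to 0.306 points (6 of 235 regions in GFP-(GR)50 replicate 2 against 2 of 89 in the GFP-(GP)10 library, adjusted p = 1, exact test). With at least 5 unique reads the difference was -8.21 points and passed (adjusted p = 0.0315, exact test). It also passed, at -7.65 points, among the 183 regions of each list with the most listed reads (adjusted p = 0.00222, exact test), of which 1 was of this kind in GFP-(GR)50 replicate 2 against 15 in the GFP-(GP)10 library. Those top regions reached down to 13 listed reads in GFP-(GR)50 replicate 2 and to 6.2 in the GFP-(GP)10 library, so they do not cover the same read numbers.

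Experiment 1 held almost none. There was 1 such region among 183 in GFP-(GR)50 replicate 1, or 0.546% (0.0138 to 3.01), against 6 among 472 in the GFP library, or 1.27% (0.468 to 2.75). The difference of -0.725 points did not pass (adjusted p = 0.855, same exact test, with 23.1% of classes called). Averaged over both GFP-(GR)50 lists the share was 7.17% ± 9.36 (SD, n = 2), an SD larger than the mean. The experiments differ in RNase I amount and in everything else that was done on separate occasions, and these cannot be told apart.

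Intronic regions that do not lie opposite a SINE took 9.44% of the list in GFP-(GR)50 replicate 2, 5.75% in the GFP-(GP)10 library and 9.26% in the untransfected library. The difference from untransfected cells was 0.180 points (adjusted p = 0.979) and that from GFP-(GP)10 was 3.69 points (adjusted p = 0.0902), both by the same exact test. Among introns, the lower share in GFP-(GR)50 replicate 2 against untransfected cells was therefore measured opposite SINEs and was not detected for the others. Other classes fell as well. The repeat class held 123 of 805 regions in GFP-(GR)50 replicate 2 against 335 of 1339 in the untransfected library. That is a difference of -9.74 points (adjusted p = 2.87e-07, same exact test). For regions without annotation the difference was -11.8 points (adjusted p = 2.66e-10, same exact test).

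**Figure D2:**
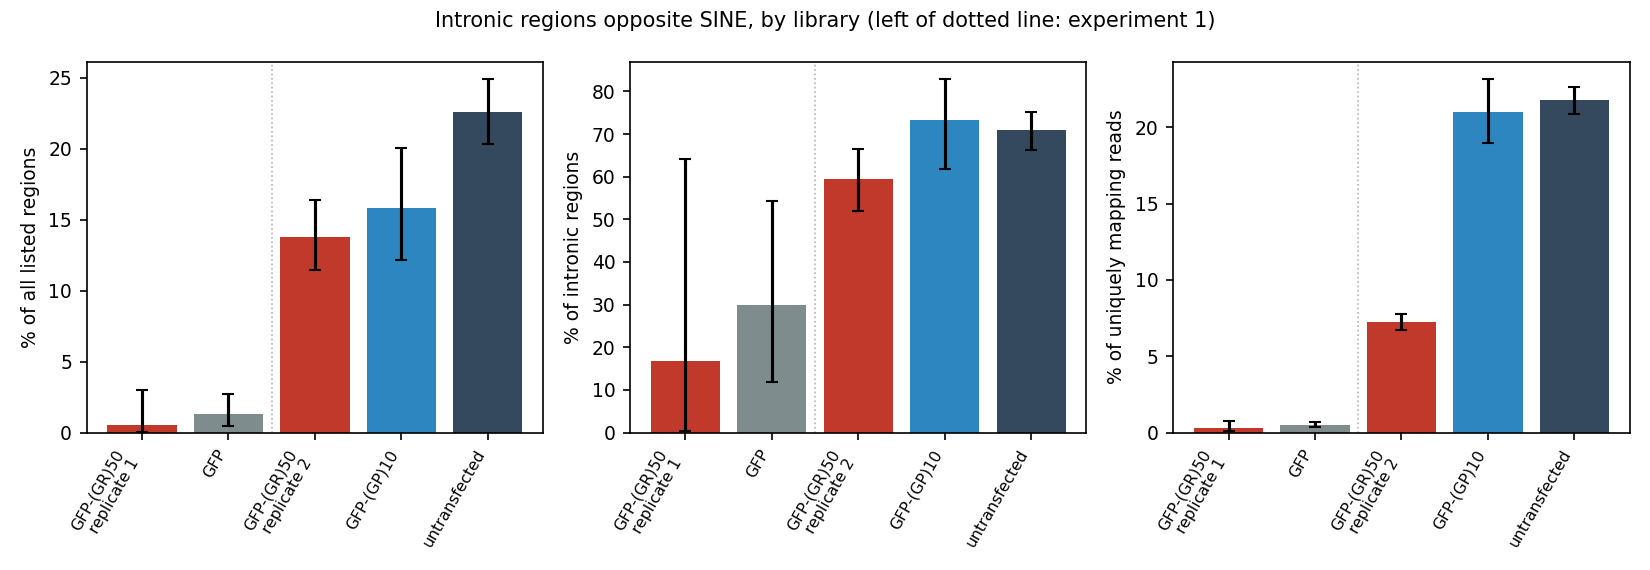
Intronic regions opposite SINE as a percentage of all regions in the list (left), of intronic regions (middle) and of unique reads (right), by library, with exact 95% intervals of counting error. GFP-(GR)50 replicate 2 stands at 13.8%, 59.4% and 7.22%, against 15.8%, 73.3% and 21.0% in the GFP-(GP)10 library and 22.6%, 70.9% and 21.8% in the untransfected library.

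The second comparison asks directly whether introns are found opposite SINEs in the same proportion. The SINE-opposed part of intronic regions was 111 of 187 in GFP-(GR)50 replicate 2, or 59.4% (51.9 to 66.5), against 55 of 75 in the GFP-(GP)10 library, or 73.3% (61.9 to 82.9), and 302 of 426 in the untransfected library, or 70.9% (66.3 to 75.2). Against untransfected cells this was a difference of -11.5 points, with an odds ratio of 0.600 (0.419 to 0.859) and an adjusted p of 0.0246 by the two-sided Fisher's exact test, adjusted over 15 tests (5 classes in 3 comparisons). That call was lost among regions with at least 5 unique reads (-11.1 points, adjusted p = 0.0821) and among those with at least 10 listed reads (-42.2 points, 6 of 17 regions against 31 of 40, adjusted p = 0.0622), by the same exact test. Against GFP-(GP)10 the difference was -14.0 points with an odds ratio of 0.531 (0.295 to 0.957), and the exact test did not pass after adjustment (adjusted p = 0.0649). In experiment 1 the part was 1 of 6 in GFP-(GR)50 replicate 1 and 6 of 20 in the GFP library, a difference of -13.3 points (adjusted p = 1, exact test).

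The lower part opposite SINEs in GFP-(GR)50 replicate 2 was not particular to introns. Against untransfected cells 80% of the 5 classes passed, against GFP-(GP)10 40%, and in experiment 1 0% did. The repeat class of GFP-(GR)50 replicate 2 lay opposite a SINE in 33 of 123 regions. Against 24 of 47 in the GFP-(GP)10 library this passed (adjusted p = 0.0184, exact test). Against 127 of 335 in the untransfected library it did not (adjusted p = 0.0592, exact test). Exonic regions lay opposite a SINE in 9 of 96 cases in GFP-(GR)50 replicate 2 against 14 of 44 in the untransfected library (adjusted p = 0.0184, exact test), and in 5 of 13 in the GFP-(GP)10 library (adjusted p = 0.0359, exact test). Regions without annotation lay opposite one in 46.0% of cases in GFP-(GR)50 replicate 2 against 62.1% in the untransfected library (adjusted p = 0.0184, exact test), and lncRNA regions in 7 of 39 against 27 of 67 (adjusted p = 0.0474, exact test). For unannotated regions against GFP-(GP)10 the direction was the opposite, 46.0% in GFP-(GR)50 replicate 2 and 38.9% in the GFP-(GP)10 library, and did not pass (adjusted p = 0.682, exact test). Nor did lncRNA regions pass against GFP-(GP)10, with 7 of 39 in GFP-(GR)50 replicate 2 against 2 of 8 (adjusted p = 0.958, exact test). Of all 714 intronic regions in the 5 lists, 66.5% lay opposite a SINE.

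By their medians, the other intronic regions were short and shallow in every list, and so were the intronic regions opposite SINEs. Their listed reads had a lowest value of 5, a median of 6 and a highest value of 13.1 in GFP-(GR)50 replicate 2, against 5, 6 and 10 in the GFP-(GP)10 library and 5, 6 and 20.5 in the untransfected library. Their median widths were 52 bp in GFP-(GR)50 replicate 2, 52 bp in the GFP-(GP)10 library and 51 bp in the untransfected library. In experiment 1 the single region of GFP-(GR)50 replicate 1 was 31 bp wide with 5 reads, and the 6 regions of GFP were 27 to 46 bp wide with 5 to 6 reads. Read depth per length was close across the lists of experiment 2. It was 119 listed reads for each kb in GFP-(GR)50 replicate 2, 122 in the GFP-(GP)10 library and 133 in the untransfected library. In experiment 1 it was 161 in GFP-(GR)50 replicate 1 and 150 in the GFP library. With short regions near the minimum of 5 listed reads, that minimum largely sets this depth, so it does not compare recovery. The covered lengths were 5839 bp in GFP-(GR)50 replicate 2, 2752 bp for GFP-(GP)10 and 15564 bp for untransfected cells. The share of regions with at most 6 listed reads was 60.4% in GFP-(GR)50 replicate 2, 69.1% in the GFP-(GP)10 library and 53.3% in the untransfected library, so most of these regions sat just above the lowest listed value. Among the other intronic regions that share was 75% in GFP-(GR)50 replicate 2, 85% in the GFP-(GP)10 library and 70.2% in the untransfected library, higher in each list. The median widths of those regions were 43.5 bp in GFP-(GR)50 replicate 2, 42.5 bp in the GFP-(GP)10 library and 47 bp in the untransfected library, lower in each list. The highest unique count opposite a SINE was 13 in GFP-(GR)50 replicate 2, where another intronic region reached 142. In that list the widest region opposite a SINE was 168 bp and the widest other intronic region 1018 bp. These contrasts were not tested.

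**Figure D3:**
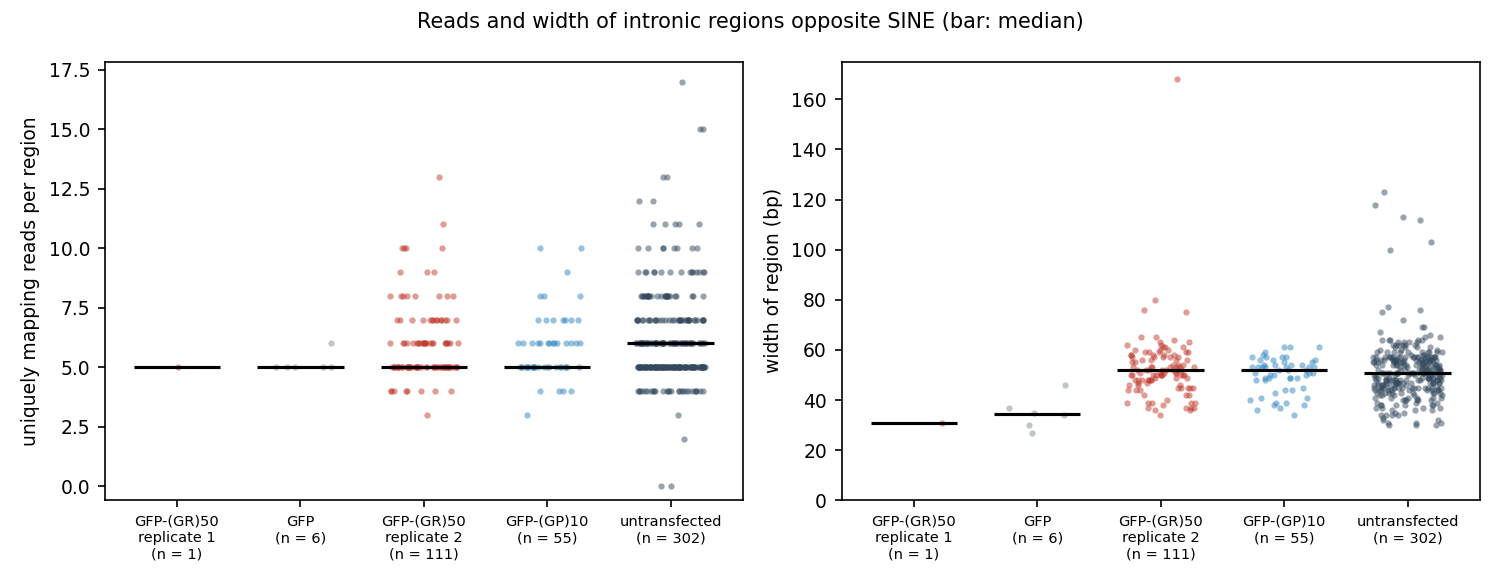
Unique reads (left) and width in bp (right) of each intronic region opposite SINE, 1 point per region and a bar at the median, by library. Medians are 5 or 6 unique reads in every list, and 51 or 52 bp in the lists of experiment 2.

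The elements are repeated, but most of the listed count in these regions came from unique reads. The listed count holds multimapping reads after scaling by a factor that is not given. How many reads mapped to several places is therefore not known. Unique reads made up 666 of 695.53 listed reads in GFP-(GR)50 replicate 2, 320 of 334.71 in the GFP-(GP)10 library and 1873 of 2075.12 in the untransfected library. Scaled multimapping reads were present in 33.3% of the regions in GFP-(GR)50 replicate 2, against 29.1% in the GFP-(GP)10 library and 50% in the untransfected library. Among the other intronic regions the share was 19.7% in GFP-(GR)50 replicate 2, 10% in the GFP-(GP)10 library and 33.9% in the untransfected library. No unique read was found in 0 of 111 regions of GFP-(GR)50 replicate 2, 0 of 55 of GFP-(GP)10 and 2 of 302 of untransfected cells, and among the other intronic regions in 3 of 76 of GFP-(GR)50 replicate 2, 0 of 20 of GFP-(GP)10 and 2 of 124 of untransfected cells. The difference passed in no list (lowest adjusted p = 0.328, exact test over 5 lists).

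Their share of reads depended strongly on which reads were counted, and was lowest in GFP-(GR)50 replicate 2 within experiment 2 each time. Of listed reads they held 0.518% in GFP-(GR)50 replicate 2, against 4.48% in the GFP-(GP)10 library and 9.21% in the untransfected library. Of unique reads GFP-(GR)50 replicate 2 had 7.22% (6.70 to 7.76) in them, the GFP-(GP)10 library 21.0% (19.0 to 23.2) and the untransfected library 21.8% (20.9 to 22.7). Of unique reads on named chromosomes outside rRNA, GFP-(GR)50 replicate 2 had 13.7% (12.8 to 14.7), the GFP-(GP)10 library 22.0% (19.9 to 24.2) and the untransfected library 22.6% (21.7 to 23.5). Both control values lay close together and above that of GFP-(GR)50 replicate 2, with intervals that did not overlap it. These intervals treat each read as independent, although reads cluster in regions, and the shares of reads were not tested. In experiment 1 the order depended on the reads counted. The share of unique reads was 0.312% in GFP-(GR)50 replicate 1 and 0.498% in the GFP library, whereas outside rRNA on named chromosomes it was 2.01% (5 of 249 reads) in GFP-(GR)50 replicate 1 and 0.531% in the GFP library.

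Few of the regions recurred between lists, and each recurring one was in the untransfected list. That list also held the most of these regions, 302 against 111 in GFP-(GR)50 replicate 2 and 55 in the GFP-(GP)10 library. Within an experiment, regions were matched when they overlapped by at least 1 bp on the same strand. The 475 regions came to 454 distinct places, of which 18 were found in more than 1 list, all in experiment 2. There were 13 places shared by GFP-(GR)50 replicate 2 and untransfected cells, which are 11.7% of the GFP-(GR)50 regions and 4.30% of the untransfected ones. GFP-(GP)10 and untransfected cells shared 8, which are 14.5% of the GFP-(GP)10 regions and 2.65% of the untransfected ones. GFP-(GR)50 replicate 2 and GFP-(GP)10 shared 3, and these were the places found in all lists of experiment 2. The remaining 98 regions of GFP-(GR)50 replicate 2, 47 of GFP-(GP)10 and 284 of untransfected cells were in 1 list alone, and the 7 regions of experiment 1 overlapped none of experiment 2.

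No difference in recurrence from other introns was detected. It was 11.7% in GFP-(GR)50 replicate 2 against 9.21% of the other intronic regions of that list, 14.5% against 20% in the GFP-(GP)10 library, and 5.96% against 6.45% in the untransfected library (adjusted p = 1 in each, exact test over 5 lists). Among all regions of the lists the share with an overlapping region was 29.3% in GFP-(GR)50 replicate 2, 57.8% in the GFP-(GP)10 library and 19.7% in the untransfected library. In experiment 1 no such intronic region recurred, 0 of 1 in GFP-(GR)50 replicate 1 and 0 of 6 in the GFP library, where 55.7% of all regions of GFP-(GR)50 replicate 1 and 22.5% of those of GFP did.

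The place with the most reads lay in an intron of RETREG3, a regulator of selective autophagy of the endoplasmic reticulum (chr17:42596339-42596399, minus strand, hg38). It had 8 unique reads in GFP-(GR)50 replicate 2, 5 in the GFP-(GP)10 library and 17 in the untransfected library. A place in GOLM1, a Golgi membrane protein gene (chr9:86076395-86076454, minus strand), had 4 in GFP-(GR)50 replicate 2, 3 in the GFP-(GP)10 library and 15 in the untransfected library. The third, in GLE1, an mRNA export factor of the nuclear pore (chr9:128524070-128524129, plus strand), had 5 in GFP-(GR)50 replicate 2, 7 in the GFP-(GP)10 library and 15 in the untransfected library. In read numbers the untransfected library was highest at all 3 places. As a share of the unique reads of the whole list, the 3 places together held 0.184% in GFP-(GR)50 replicate 2. That share was 0.986% in the GFP-(GP)10 library and 0.546% in the untransfected library. A place counts here only where every list reached 5 listed reads, and the counts in GFP-(GR)50 replicate 2 and GFP-(GP)10 lay near that minimum. Their shares thus largely follow the unique reads of the whole list, 9229 in GFP-(GR)50 replicate 2 and 1522 in the GFP-(GP)10 library. The order of these shares therefore does not compare recovery. The sum of the 3 places was 17 unique reads in GFP-(GR)50 replicate 2, 15 in the GFP-(GP)10 library and 47 in the untransfected library. At these places the edges called in the lists lay within 7 bp at the start and 14 bp at the end. Coordinates are those of the untransfected list.

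Of the 13 places shared by GFP-(GR)50 replicate 2 and untransfected cells, 11 had fewer unique reads in GFP-(GR)50, and the sum over all 13 was 75 in GFP-(GR)50 replicate 2 against 129 in the untransfected library. These sums are 0.813% of the unique reads of the list in GFP-(GR)50 replicate 2 and 1.50% in the untransfected library. They cover only places that reached 5 listed reads in both lists, so these shares do not compare recovery. The exceptions were VWF, the clotting factor that carries factor VIII, and KLHL22, an adaptor of a CUL3 ubiquitin ligase. The VWF region (chr12:5998450-5998499, minus strand) had 13 unique reads in GFP-(GR)50 replicate 2 against 10 in the untransfected library, and the KLHL22 region had 6 against 5. Neither excess was tested. The remaining places were lower in GFP-(GR)50 replicate 2. At ZNF91, a KRAB zinc finger gene whose protein silences SVA retrotransposons, there were 6 in GFP-(GR)50 replicate 2 against 13 in the untransfected library. GCM1, a transcription factor gene of the placenta, had 6 against 11, and NAA35, a subunit gene of the NatC acetyltransferase, 6 against 10. LYST, which acts in lysosome traffic, had 5 in GFP-(GR)50 replicate 2 against 9 in the untransfected library. At PDPR, the regulatory subunit gene of pyruvate dehydrogenase phosphatase, the counts were 4 against 7, and at the aminopeptidase gene AOPEP 4 against 6. TTC28, a tetratricopeptide repeat protein gene, had 4 in GFP-(GR)50 replicate 2 against 6 in the untransfected library.

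All 8 places shared by GFP-(GP)10 and untransfected cells had fewer unique reads in the GFP-(GP)10 library, with a sum of 40 in the GFP-(GP)10 library against 94 in the untransfected library. As a share of the list's unique reads the sums were 2.63% in the GFP-(GP)10 library and 1.09% in the untransfected library. A place counts only where both lists reached 5 listed reads, and the GFP-(GP)10 counts lay near that minimum. The whole lists held 1522 unique reads in the GFP-(GP)10 library and 8606 in the untransfected library. The order of the shares therefore largely follows list size and does not compare recovery. The 5 that GFP-(GR)50 replicate 2 lacked were in OSBPL10, a lipid-binding protein gene (5 in the GFP-(GP)10 library against 12 in the untransfected library), ADK, adenosine kinase (6 against 12), NRAP, a muscle anchoring protein (5 against 8), IGSF21, a synaptic adhesion protein (4 against 7), and HNRNPA2B1, an RNA-binding hnRNP (5 against 8).

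**Figure D4:**
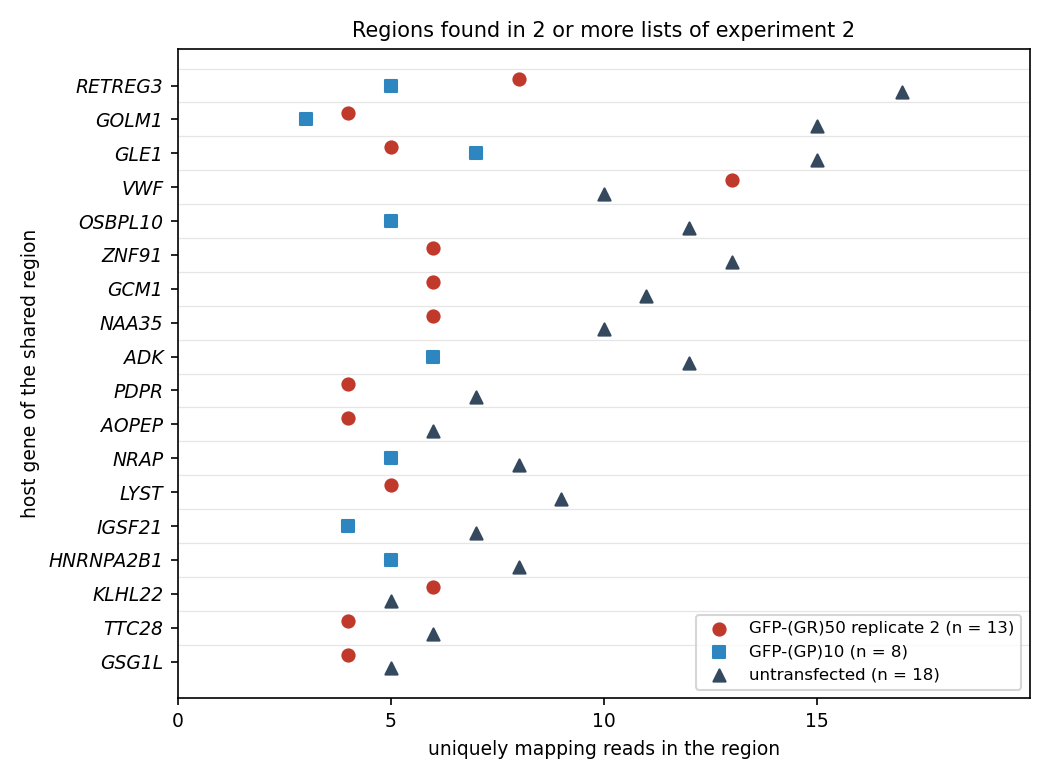
Unique reads (horizontal axis) at the 18 places found in more than 1 list of experiment 2, by host gene, ordered by summed listed reads. The untransfected value is the highest at all of them except VWF and KLHL22, where GFP-(GR)50 replicate 2 has 13 against 10 and 6 against 5.

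In the untransfected list recurrence went with read number. The 18 recurring regions had a median of 9.5 unique reads and the 284 others a median of 6. Among its regions with at least 10 unique reads, 9 of 20 (45%) recurred, against 9 of 282 (3.19%) below that. The same split gave 1 of 6 and 12 of 105 in GFP-(GR)50 replicate 2, and 0 of 2 and 8 of 53 in the GFP-(GP)10 library. Few regions of these lists lay above the split. The split was made after the values were seen.

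Hosts were spread widely. The regions carried 469 host gene symbols, 436 of them with 1 region in all lists together, and 27 with a region in more than 1 list. Where a region named several genes, as 26 did, each symbol was counted, so symbols can outnumber regions. At 18 of these 27 hosts the lists shared the place itself. At the other 9 the regions lay elsewhere in the same gene. In TCF20, a transcriptional coregulator gene, the region of GFP-(GR)50 replicate 2 (8 unique reads) and that of untransfected cells (6) were 141 bp apart. In CKAP5, a microtubule polymerase gene, the gap between GFP-(GR)50 replicate 2 (8) and untransfected cells (4) was 2412 bp, and in KPNB1, importin beta, it was 7020 bp (6 against 5). In ZNRF3, a ubiquitin ligase gene that limits Wnt signalling, it was 45217 bp (5 against 8). In the DNA repair nuclease gene MRE11 the gap between GFP-(GP)10 (6) and untransfected cells (7) was 883 bp. DHX30, an RNA helicase gene, had regions 7567 bp apart in the GFP-(GP)10 library (6) and untransfected cells (5). NPLOC4, a cofactor of the VCP ATPase, was the one host shared by GFP-(GR)50 replicate 2 (7) and GFP-(GP)10 (5) without untransfected cells, at places 16702 bp apart. At these hosts the gene recurred and the place did not.

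Several regions in 1 host were rare. Only 3 hosts had 3 in a single list, all in the untransfected library. PRRC2B, an RNA-binding protein gene, had regions of 7, 5 and 7 unique reads there and a further one, of 7, in GFP-(GR)50 replicate 2. SPEN, a transcriptional repressor gene, had 9, 6 and 5, and UBE2K, a ubiquitin-conjugating enzyme gene, 5, 5 and 5. In GFP-(GR)50 replicate 2 the ubiquitin ligase gene RNF126 had a pair of regions 76 bp apart. Few hosts had exonic signal as well. A region in an exon of the same host was listed for 3 of 115 host symbols in GFP-(GR)50 replicate 2. It was listed for 0 of 61 in the GFP-(GP)10 library and 4 of 315 in the untransfected library. Exonic regions were few in these lists, 96 in GFP-(GR)50 replicate 2, 13 in the GFP-(GP)10 library and 44 in the untransfected library. No such share is given for hosts of other intronic regions, so the low counts are not read as a trait of these hosts.

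The regions with most reads differed between the lists. In GFP-(GR)50 replicate 2 VWF was followed by NUSAP1, a spindle protein gene (chr15:41360793-41360849, plus strand, 11 unique reads, with AC087721.2 named as a second host), and then by RNF126 (chr19:655441-655499, minus strand), TTC28 (chr22:28524430-28524478, minus strand) and PRR14L (chr22:31711753-31711800, minus strand) with 10 each. FNBP1, outside the naming rule and added after its value was seen, tied with these at 10. Except for VWF none of these places was in another list. In GFP-(GP)10 the leading regions lay in CGREF1, a secreted growth regulator (chr2:27116184-27116242, minus strand), and ZNF484, a zinc finger gene (chr9:92872192-92872253, minus strand), with 10 unique reads each. By listed reads they were followed by PCLAF, a PCNA-binding factor (9), SMARCA1, a chromatin remodelling ATPase (8.5, with 7 unique), and ZMIZ1, a transcriptional coactivator (8). MAML3 and TENT2, outside the naming rule and added after their values were seen, tied with ZMIZ1 at 8. None of these places was in another list either. In untransfected cells GOLM1, RETREG3, GLE1 and OSBPL10, described above, led together with INKA2, an inhibitor of PAK kinase (chr1:111740955-111741017, minus strand, 13 unique reads). Of the 20 untransfected regions with most listed reads, 10 recurred in another list.

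In experiment 1, the region of GFP-(GR)50 replicate 1 lay in GNB1, a G protein beta subunit gene (chr1:1874267-1874298, minus strand), with 5 unique reads. The GFP list had FAF1, a Fas-associated factor, with 6 unique reads, and RASAL2, a Ras GTPase-activating protein, RIN2, a Rab5 exchange factor, ZGPAT, a zinc finger repressor, and NPM1, the nucleolar protein nucleophosmin, with 5 each. The remaining region of that list, in the condensin gene NCAPG2, lies outside the naming rule and also had 5. No host was shared between these libraries, and with at most 6 reads per region none stood apart from the lowest listed value.

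Genes for proteins that bind Alu or double-stranded RNA (SRP9, SRP14, ADAR, ADARB1, HNRNPC, DHX9, ILF2, STAU1, EIF2AK2, U2AF2, MATR3, PTBP1, ELAVL1, TARDBP, DICER1, DROSHA, NONO and SFPQ) were looked up among the hosts. The look-up shows whether the pre-mRNAs of these proteins were recovered, not whether the proteins were. STAU1, which binds double-stranded RNA and acts in mRNA decay, was the only host among those named, with 1 region of 6 unique reads in GFP-(GR)50 replicate 2 (chr20:49186304-49186357, minus strand). DHX9, an RNA helicase that unwinds paired Alus, and MATR3, a nuclear matrix RNA-binding protein, had listed regions outside this class. None of the others named here had a listed region of any class.

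Counts per chromosome differed most between the lists at a few chromosomes. Chromosome 19, which is dense in genes and Alus, held 12 of the regions in GFP-(GR)50 replicate 2 (10.8%) and 6 in the GFP-(GP)10 library (10.9%), against 17 in the untransfected library (5.63%). Chromosome 22 held 9 in GFP-(GR)50 replicate 2 (8.11%) and 0 in the GFP-(GP)10 library, against 6 in the untransfected library (1.99%). Chromosomes 5 and 8 held 1 each in GFP-(GR)50 replicate 2 (0.901%), with 1 and 2 in the GFP-(GP)10 library, against 21 (6.95%) and 18 (5.96%) in the untransfected library. In GFP-(GR)50 replicate 2 against the untransfected library, the whole lists, which include these regions, leaned the same way at each of these chromosomes. The whole GFP-(GP)10 list did not at chromosome 19, with 12 of 348 regions against 53 of 1339 in the untransfected library. Of all regions, chromosome 19 held 60 of 805 in GFP-(GR)50 replicate 2 against 53 of 1339 in the untransfected library, and chromosome 22 held 29 of 805 against 19 of 1339. Chromosome 8 held 19 of 805 in GFP-(GR)50 replicate 2 against 69 of 1339 in the untransfected library, and chromosome 5 held 39 of 805 against 72 of 1339. For the other intronic regions chromosome 19 held 11 of 76 in GFP-(GR)50 replicate 2 against 3 of 124 in the untransfected library, chromosome 22 0 against 2, chromosome 8 0 against 5 and chromosome 5 10 against 8. The chromosomes named here were picked after their values were seen and were not tested.

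**Figure D5:**
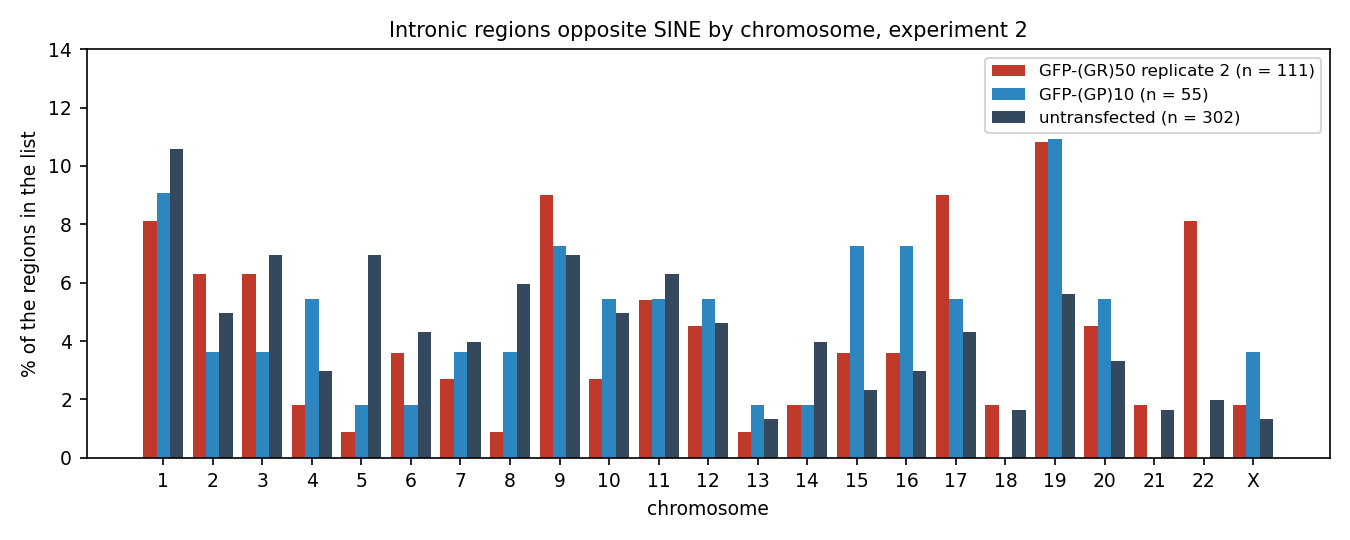
Percentage of each list's intronic regions opposite SINE (vertical axis) on each chromosome, for GFP-(GR)50 replicate 2 (111 regions), GFP-(GP)10 (55) and untransfected cells (302). Chromosome 22 holds 8.11% in GFP-(GR)50 replicate 2 and 1.99% in the untransfected library, while chromosome 5 holds 0.901% in GFP-(GR)50 replicate 2 and 6.95% in the untransfected library.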

How the data were processed

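Processed region lists of 5 CLIP-Seq libraries were used, 1 list per library. The submitters' processing notes name the builds hg38 and GRCh38.p13 and the tools featureCounts 2.0.2, bedtools 2.30.0, UMI-tools 1.1.2 and Novoalign 4.03.03. The sources used here do not give their role and order, the region caller, its filters or total library depths. Per the file headers, one deposited column is the count of uniquely mapping reads per region. In GFP-(GR)50 replicate 2, 6 of its values are not whole, none in the regions described, so the deposited values were treated there as an expected count. The second column, per the file headers, is an expected count (estimated count) to which the authors added multimapping reads, scaled by a factor that is not given. Neither is normalised for depth. Units were checked on the values. The sources used here do not say whether coordinates start at 0 or 1.

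Regions were sorted into 13 classes by the deposited annotation, with protein-coding introns split by an opposite-strand SINE. Shares were compared within an experiment by the two-sided exact test of Fisher, adjusted by Benjamini-Hochberg, at a threshold of 0.05 (Python 3.11.15, pandas 2.3.3, scipy 1.17.1, numpy 2.4.6, matplotlib 3.10.9). The tests and overlaps were tested on simulated data. Intervals cover counting error only, and multimapping reads are not independent reads. Region lists do not show the markers of HEK-293 cells, so that label was not checked. The regions and gene lists were chosen with earlier results of these data known. Named hosts are those with a region in 2 or more lists (at most 25, by lists and summed listed reads), the 5 regions with most listed reads and the 3 with most unique reads per list, hosts with 3 or more regions in 1 list, and genes of a list of Alu or double-stranded RNA binding proteins, some of which are not reported here. EIF2S2, CSNK1D and the named chromosomes were chosen after their values were seen. The files give no SINE family, so the planned groups of SINEs were not made, and no sequences or motifs were read. Alternatives were read minima, equal list lengths, pooled controls, lists without rRNA, other overlap rules and other read totals. Those on named chromosomes outside rRNA were added after the data were seen.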

Additional observations from a re-analysis of the deposited data

How the results depend on the processing

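Of 41 alternatives with a test, 32 neither crossed the threshold nor changed sign. Of these, 25 kept a direction, 5 were 0 in both settings and 2 moved to or from 0, and 3 of the 25 (no same-strand repeat) could not differ in introns. With all 3 control lists pooled, which mixes the experiments, the share of regions in introns opposite SINE differed by -16.3 points for GFP-(GR)50 replicate 1 and passed (adjusted p = 3.65329e-12), and by -3.02 points for replicate 2, which no longer passed (adjusted p = 0.0789), all by Fisher's exact test. The difference of replicate 2 from untransfected cells passed in the others, between -5.46 and -9.14 points. With equal numbers of top regions that of replicate 1 from GFP turned to 0.546 points (1 of 183 against 0 of 183), and that of replicate 2 from GFP-(GP)10 grew to -7.65 and passed. The comparison with GFP-(GP)10 also passed with at least 5 unique reads (-8.21) and turned to 0.306 with at least 10 listed reads. The share of introns opposite SINE no longer passed against untransfected cells with at least 5 unique (-11.1) or 10 listed reads (-42.2), where fewer regions remain. Counting regions with fewer than 5 unique reads, in place of none, turned the difference from other introns in untransfected cells to 0.587 points. Shares of reads all moved with the reads counted. Counted of unique reads, of listed reads without rRNA, and of listed and then unique reads on named chromosomes without rRNA, they were 0.312%, 0.212%, 0.301% and 2.01% in GFP-(GR)50 replicate 1, against 0.498%, 0.276%, 0.278% and 0.531% in the GFP library. The same 4 values were 7.22%, 2.02%, 8.16% and 13.7% in GFP-(GR)50 replicate 2, against 21.0%, 10.5%, 17.0% and 22.0% in the GFP-(GP)10 library and 21.8%, 16.3%, 20.8% and 22.6% in untransfected cells. Leaving out 1 GFP-(GR)50 library gave shares between 0.546% and 13.8%. Where an alternative changed a result, the cause was not tested unless stated. No paired analysis was possible because each control has 1 library and the labels pair none. Alu-only alternatives were not run because the files name no SINE family, and the 10-read minimum left no intronic region in GFP-(GR)50 replicate 1. With most regions at 5 or 6 reads, depth limits what recurrence can show.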
